A study of Mus musculus with 18 samples.

Results

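The small leucine-rich proteoglycans are secreted proteins of the extracellular matrix, each built on a core of leucine-rich repeats that binds collagen fibrils. The genes measured here were Dcn, Lum, Kera, Fmod, Ogn, Bgn, Omd, Prelp and Aspn. Their probe sets were taken by name, as those that the probe annotation assigns to 1 of these symbols alone. They made up 20 of the 45101 probe sets of the array and 9 of the 18194 genes that it names: 6 probe sets for Fmod, 3 for Bgn, 2 each for Dcn, Ogn, Prelp and Aspn, and 1 each for Lum, Kera and Omd. The rule itself uses names alone.

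Proteins of this family carry chains of keratan sulfate, or of chondroitin or dermatan sulfate, and help to set the diameter and spacing of collagen fibrils. In the eye they are known from the stroma of the cornea, where keratocan and lumican are needed for the regular packing of fibrils that keeps it clear, and from the sclera, whose stiffness and growth depend on its collagen. Decorin and biglycan also bind members of the TGF-β family. The genes lie in groups in the genome. By gene order in assembly GRCm38.p6, Dcn, Lum, Kera and their relative Epyc are neighbours on chromosome 10. Aspn, Omd and Ogn follow the related Ecm2 on chromosome 13, Optc, Prelp and Fmod stand next to each other on chromosome 1, and Bgn is on chromosome X without a neighbour of the family.

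RNA of the RPE/choroid, which is the retinal pigment epithelium with the vascular layer behind it, was hybridized to 18 Affymetrix arrays of the mouse genome. All animals were male C57BL6/J mice, given as 2 months old in the labels and as 6 to 8 weeks old in the methods. Every animal received 1 intravitreal injection of 1 μL: balanced salt solution (BSS, the control and the solvent of both drugs), 10 μg of dexamethasone (Dex) in BSS, or 25 μg of triamcinolone acetonide (TAA) in BSS. Tissue was taken at day 7 or at day 30, so that there were 6 groups (BSS day 7, Dex day 7, TAA day 7, BSS day 30, Dex day 30 and TAA day 30) of 3 arrays, each from a separate animal. The arrays are those of the 3 samples with the best RNA among 4 per group. Dex and TAA are synthetic glucocorticoids, which act through the glucocorticoid receptor, and their doses differ.

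The dissection bears on these genes. Per the methods, the front of the eye was cut off behind the limbus, muscle and connective tissue were cleaned from the outside, and the sclera was lifted out after the pigmented cells had been released, with most of the choroid probably still attached to it. In such a bulk sample, fewer stromal cells and less RNA per stromal cell cannot be told apart. The deposited values are log2 signals set to a median of 0 over the 18 arrays for each probe set, so they hold differences but no level, and the levels of 2 genes cannot be compared. For the same reason the label RPE/choroid could not be checked by the levels of its markers. The mean of 7 RPE genes ran from -0.24 to 0.21 over the arrays. The mean of 7 keratins of the surface epithelium ran from -2.79 to 3.27, that of 9 rod genes from -1.77 to 3.87 and that of 6 lens genes from -1.83 to 3.41. The cause of this variation was not tested.

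The steroid receptor binds DNA, so the promoters of the genes are given here for reference. A RefSeq table of assembly GRCm38.p6, holding 300 bases around the start of each gene, had an entry for 7 of the 9 genes (Kera, Fmod, Ogn, Bgn, Omd, Prelp and Aspn). Shown are Kera, whose values were spread most widely, and Fmod and Bgn, whose values followed each other most closely. Capitals mark the hexamer TGTTCT, which is the core of the glucocorticoid response element, on either strand.
Kera promoter, chr10:97606955-97607254, plus strand: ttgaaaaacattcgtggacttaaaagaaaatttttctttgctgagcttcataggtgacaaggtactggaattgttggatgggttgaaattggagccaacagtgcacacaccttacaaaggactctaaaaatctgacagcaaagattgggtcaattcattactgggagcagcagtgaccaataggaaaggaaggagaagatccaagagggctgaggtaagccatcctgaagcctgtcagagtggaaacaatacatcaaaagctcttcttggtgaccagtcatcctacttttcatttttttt
Fmod promoter, chr1:134037004-134037303, plus strand: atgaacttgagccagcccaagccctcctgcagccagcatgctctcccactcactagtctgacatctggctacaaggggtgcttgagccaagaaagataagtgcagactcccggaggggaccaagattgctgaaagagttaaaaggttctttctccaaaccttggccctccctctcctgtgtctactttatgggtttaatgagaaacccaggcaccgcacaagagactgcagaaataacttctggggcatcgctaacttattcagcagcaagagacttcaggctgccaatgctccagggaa
Bgn promoter, chrX:73483351-73483650, plus strand: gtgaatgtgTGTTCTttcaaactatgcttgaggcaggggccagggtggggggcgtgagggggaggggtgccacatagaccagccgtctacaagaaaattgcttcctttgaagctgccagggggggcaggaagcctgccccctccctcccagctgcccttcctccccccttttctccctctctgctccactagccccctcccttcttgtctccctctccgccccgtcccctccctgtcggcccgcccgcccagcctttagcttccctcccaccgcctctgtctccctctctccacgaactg

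The full palindrome GNACANNNTGTNC, searched on both strands, was in 0 of the 7 promoters, against 0.475% of the 32851 promoters in the table. The hexamer TGTTCT, which can overlap the palindrome, was in 1 of the 7, starting at -241 in Bgn, against 19.0% of all promoters. The TATA box TATAAA was in 2 of the 7, Ogn and Aspn, against 13.6%. A match describes these letters in this window only.

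None of the 20 probe sets differed between the groups after correction for the number of probe sets tested. limma's test, with the spread estimated over all 18 arrays and Benjamini-Hochberg adjustment over 45101 probe sets, called 0 of the 20 in any of 9 comparisons at an adjusted p under 0.05. Few other probe sets were called either. The share of all probe sets was 0% for Dex against BSS at both days, for TAA against BSS at day 30, for TAA against Dex at both days and for the change over time in the effect of either steroid, 0.00222% for TAA against BSS at day 7, and 0.399% for day 30 against day 7. The F-test over the 6 groups likewise called 0 of the 20, against 0.0155% of all probe sets. Before adjustment, 1 of the 20, a probe set of Prelp, was at or under 0.05 in limma's F-test, against 5.06% of all. In the comparisons with BSS, the 20 held 0 probe sets at or under 0.05 before adjustment for Dex at day 7 (2.23% of all), 1 for TAA at day 7 (3.93%), 1 for Dex at day 30 (4.23%) and 2 for TAA at day 30 (2.63%). They held 0 for TAA against Dex at day 7 (2.7% of all) and 0 at day 30 (1.91%). The values below are therefore given with their spread. Beside each comparison stands the count at the study's thresholds, a fold of at least 1.5 and an unadjusted p no higher than 0.05. Here they were applied to limma's p, without a filter on signal. The study applied them to an unpaired t-test, after a filter against weak signals. An exact permutation test of 3 arrays against 3 cannot give a two-sided p below 0.1.

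**Figure D1:**
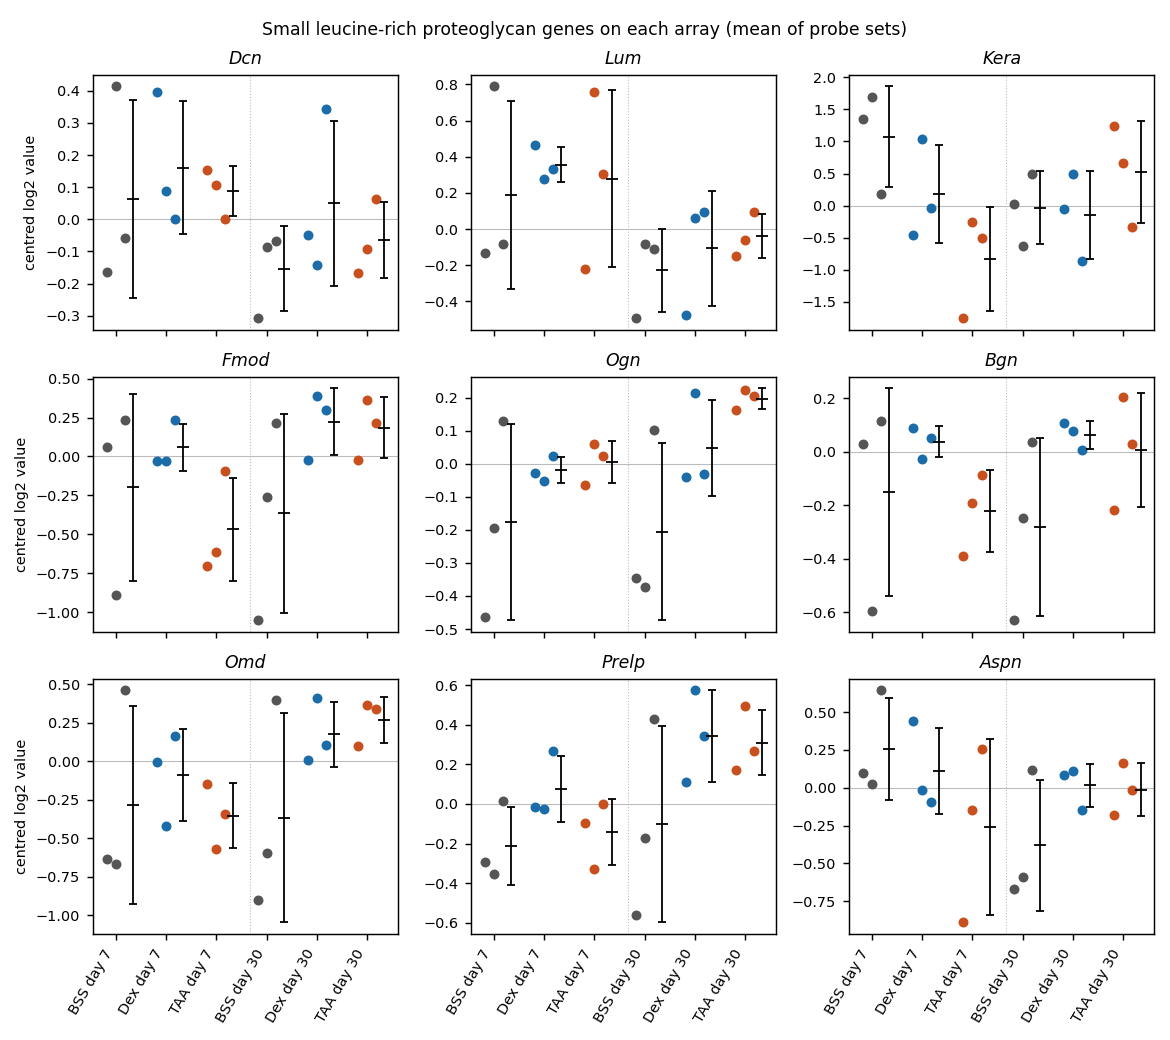
Centred log2 value (y axis) of each of the 9 genes on each array, as the mean of its probe sets. Each point is 1 array, with 3 arrays for each of the 6 groups on the x axis, and the bar beside them is the group mean ± SD. The y axis differs between genes and spans the most for Kera, from -1.75 to 1.69. 1 array of BSS day 30 is the lowest of all 18 in 6 of the 9 genes.

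The genes differed in how much they varied. Over the 18 arrays the SD of the log2 value was 0.87 for Kera, higher than that of 98.3% of all genes. It was 0.44 for both Omd and Fmod (94.5%), 0.37 for Aspn (92.6%), 0.36 for Lum (92%), 0.32 for Prelp (89.6%), 0.24 for Bgn (82.1%), 0.20 for Ogn (74.6%) and 0.20 for Dcn (73.4%). The median over all genes was 0.144. All 9 thus varied more than the middle gene of the array. Much of that variation lay between arrays of the same group, where the SD was 0.74 for Kera, 0.42 for Omd, 0.41 for Fmod and 0.27 for Prelp. Where a gene had several probe sets, they followed each other over the arrays with r from 0.97 to 0.99 for Bgn and from 0.89 to 0.997 for Fmod, 5 of whose 6 probe sets carry the suffix that marks probes shared with other transcripts. The probe sets of Ogn (r = 0.79), Aspn (r = 0.77) and Prelp (r = 0.72) followed each other less closely, and those of Dcn least (r = 0.42).

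Kera encodes keratocan, a keratan sulfate proteoglycan that in the adult eye is best known from the keratocytes of the corneal stroma. On its probe set (1418063_at) the centred log2 values at day 7 were 1.34, 1.69 and 0.18 after BSS. They were -0.45, 1.03 and -0.03 after Dex and -1.75, -0.25 and -0.50 after TAA. All 3 TAA arrays thus lay below all 3 BSS arrays, and the Dex arrays overlapped both. The difference of TAA from BSS was -1.91 on the log2 scale (SE 0.54, 95% interval -3.05 to -0.76), or 0.27-fold, with an unadjusted p of 0.00287 and an adjusted p of 0.996 in limma. Dex differed from BSS by -0.89 (interval of the gene means -2.06 to 0.28).

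At day 30 the order of the groups was another. The values of Kera were 0.03, -0.62 and 0.50 after BSS. They were -0.06, 0.50 and -0.87 after Dex, and 1.24, 0.66 and -0.33 after TAA, and all 3 groups overlapped. TAA differed from BSS by 0.55 at this day (interval -0.62 to 1.72). The effect of TAA was thus 2.46 higher at day 30 than at day 7 (SE 0.76, unadjusted p = 0.00547, adjusted p = 0.994 in limma). When each array was left out in turn, the difference at day 7 ran from -2.35 to -1.45.

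Markers of other tissues also differed between TAA and BSS at day 7, some lower and some higher. With TAA, all 9 rod genes (median 1.13), all 7 RPE genes (median 0.09) and 4 of 5 melanocyte and pigment genes were higher on average. All 7 keratins of the surface epithelium were lower in TAA than in BSS on average, and their mean was -2.54, -2.79 and -0.32 on the TAA arrays against 1.80, -1.57 and 0.30 on the BSS arrays. All 6 lens genes and all 9 skeletal muscle genes were lower as well, with list means on the TAA arrays of -1.83 to -0.35 and -0.60 to -0.19, against -0.04 to 0.49 and 0.03 to 0.25 on the BSS arrays. With the keratin mean of each array as a covariate, the difference in Kera was -1.53 (unadjusted p = 0.00528 in limma), and with the muscle mean -2.38 (unadjusted p = 0.00473). The part of the lens and of the adipocyte genes, 4 of 4 of which were lower, was not tested. The same holds for keratin and muscle tissue, whose covariate fits are given as values. Some of the lens, rod, skeletal muscle and stromal fibroblast genes were singled out by the study from these same arrays, so the direction of those lists is not independent evidence.

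Lum encodes lumican, the other main keratan sulfate proteoglycan of the cornea, which is also made in the sclera and many other connective tissues. Its values at day 7 were -0.13, 0.79 and -0.08 after BSS, 0.46, 0.27 and 0.33 after Dex, and -0.22, 0.76 and 0.30 after TAA. At day 30 they were -0.49, -0.08 and -0.11 after BSS, -0.48, 0.06 and 0.09 after Dex, and -0.15, -0.06 and 0.09 after TAA. No treatment stood apart at either day, and the steroid differences ran from 0.09 to 0.19. Lum was lower at day 30 than at day 7 by a log2 difference of -0.40 (SE 0.15, unadjusted p = 0.0147, adjusted p = 0.248 in limma).

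Fmod encodes fibromodulin, which carries keratan sulfate and binds collagen in tendon, sclera and cartilage. On the probe set without the shared-probe suffix (1415939_at) the values at day 7 were -0.22, -0.79 and 0.03 after BSS. They were -0.04, 0.05 and 0.36 after Dex and -0.63, -0.52 and -0.03 after TAA. At this day the BSS arrays overlapped those of both steroids.

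At day 30 this probe set of Fmod read -1.04, -0.53 and 0.43 after BSS, -0.24, 0.65 and 0.55 after Dex, and 0.18, 0.53 and 0.16 after TAA. The BSS arrays held the lowest value but also a high value, and overlapped the arrays of both steroids. Dex differed from BSS by 0.70 (SE 0.32, 1.63-fold, unadjusted p = 0.0459, adjusted p = 0.999 in limma), and TAA by 0.67 (SE 0.32, unadjusted p = 0.0552). Without BSS day 30 replicate 1, the Dex difference was 0.37 (unadjusted p = 0.26), and without replicate 3 of that group it was 1.10 (unadjusted p = 0.00173). In limma the Dex difference also missed 0.05 before adjustment without BSS day 30 replicate 2 (unadjusted p = 0.11). The same held without Dex day 30 replicate 2 (unadjusted p = 0.159) or replicate 3 (unadjusted p = 0.131). In some fits without an array of another group, limma's unadjusted p was just over 0.05, such as 0.0541 without Dex day 7 replicate 2. The other 5 probe sets of Fmod differed in the same direction at day 30, and as the mean of all 6 the Dex difference was 0.59 (interval -0.06 to 1.24).

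Omd, which encodes osteomodulin, a keratan sulfate proteoglycan first known from bone, read -0.64, -0.67 and 0.46 after BSS, -0.01, -0.42 and 0.16 after Dex, and -0.15, -0.57 and -0.34 after TAA at day 7. At day 30 it read -0.90, -0.59 and 0.40 after BSS, 0.01, 0.41 and 0.11 after Dex, and 0.10, 0.37 and 0.34 after TAA. Both BSS groups had 2 low arrays and 1 high array, which overlapped the steroid arrays. At day 30 the differences from BSS were 0.54 for Dex (interval -0.14 to 1.22) and 0.63 for TAA (interval -0.04 to 1.31).

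Prelp encodes prolargin, which ties basement membranes to the collagen of connective tissue. As the mean of its 2 probe sets it read -0.29, -0.35 and 0.01 after BSS, -0.01, -0.03 and 0.27 after Dex, and -0.09, -0.33 and 0.00 after TAA at day 7. At day 30 it read -0.56, -0.17 and 0.43 after BSS, 0.11, 0.57 and 0.34 after Dex, and 0.17, 0.49 and 0.27 after TAA. The groups overlapped at both days, apart from 1 probe set (1416321_s_at) on which all 3 Dex arrays lay above all 3 BSS arrays at day 7 (0.38, SE 0.25). The gene mean at day 30 differed by 0.44 for Dex (interval 0.01 to 0.87) and by 0.41 for TAA (interval -0.02 to 0.84). On 1416321_s_at, day 30 was higher than day 7 over all treatments by 0.42 (SE 0.14, unadjusted p = 0.0105, adjusted p = 0.222 in limma).

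Bgn encodes biglycan, which carries chondroitin or dermatan sulfate chains. As the mean of its 3 probe sets it read 0.03, -0.60 and 0.12 after BSS, 0.09, -0.03 and 0.05 after Dex, and -0.39, -0.19 and -0.09 after TAA at day 7. At day 30 it read -0.63, -0.25 and 0.04 after BSS, 0.11, 0.08 and 0.01 after Dex, and -0.22, 0.21 and 0.03 after TAA. The Dex arrays lay close together at both days, and at day 7 each of them was above each TAA array. At day 30, 1 of the 3 probe sets (1437889_x_at) had all 3 Dex arrays above all 3 BSS arrays (0.33, SE 0.17). For the gene mean, the difference from BSS at day 30 was 0.34 for Dex (interval -0.04 to 0.73) and 0.29 for TAA (interval -0.10 to 0.68).

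Dcn, which encodes decorin, the close relative of biglycan, was the least variable with Ogn. As the mean of its 2 probe sets, its 18 values lay between -0.31 and 0.41, and its steroid differences from BSS ran from 0.02 to 0.20. Within a day, no treatment stood apart from another in either probe set. Aspn encodes asporin, which binds collagen and TGF-β and, unlike decorin and biglycan, has no site for such a sugar chain. As the mean of 2 probe sets it read 0.10, 0.03 and 0.64 after BSS, 0.44, -0.01 and -0.09 after Dex, and -0.89, -0.15 and 0.26 after TAA at day 7. At day 30 it read -0.67, -0.59 and 0.12 after BSS, 0.08, 0.11 and -0.15 after Dex, and -0.18, 0.16 and -0.02 after TAA. The groups overlapped at both days. TAA differed from BSS by -0.52 at day 7 (interval -1.09 to 0.06) and by 0.37 at day 30 (interval -0.21 to 0.94).

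Ogn encodes osteoglycin, or mimecan, a keratan sulfate proteoglycan of the cornea that is also made in many connective tissues. On 1419662_at the values at day 30 were -0.48, -0.54 and 0.09 after BSS, -0.27, 0.29 and -0.03 after Dex, and 0.14, 0.16 and 0.23 after TAA. On 1419663_at they were -0.22, -0.21 and 0.12 after BSS, 0.19, 0.14 and -0.03 after Dex, and 0.18, 0.29 and 0.19 after TAA. On both probe sets all 3 TAA arrays lay above all 3 BSS arrays, by 0.48 (SE 0.19, unadjusted p = 0.0208) and 0.32 (SE 0.11, unadjusted p = 0.0102). The adjusted p was 0.9999 for both in limma, and neither reached a fold of 1.5. In limma, 1419662_at missed 0.05 before adjustment without BSS day 30 replicate 1 (unadjusted p = 0.0788) or replicate 2 (unadjusted p = 0.093). It also did so without TAA day 30 replicate 3 (unadjusted p = 0.0513 in limma). On 1419663_at the unadjusted p in limma was at most 0.048 when each array was left out. By the methods' t-test the unadjusted p was 0.0743 on 1419662_at and 0.0489 on 1419663_at. At day 7 the gene mean was -0.46, -0.20 and 0.13 after BSS, -0.03, -0.05 and 0.02 after Dex, and -0.06, 0.06 and 0.02 after TAA, and the groups overlapped.

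**Figure D2:**
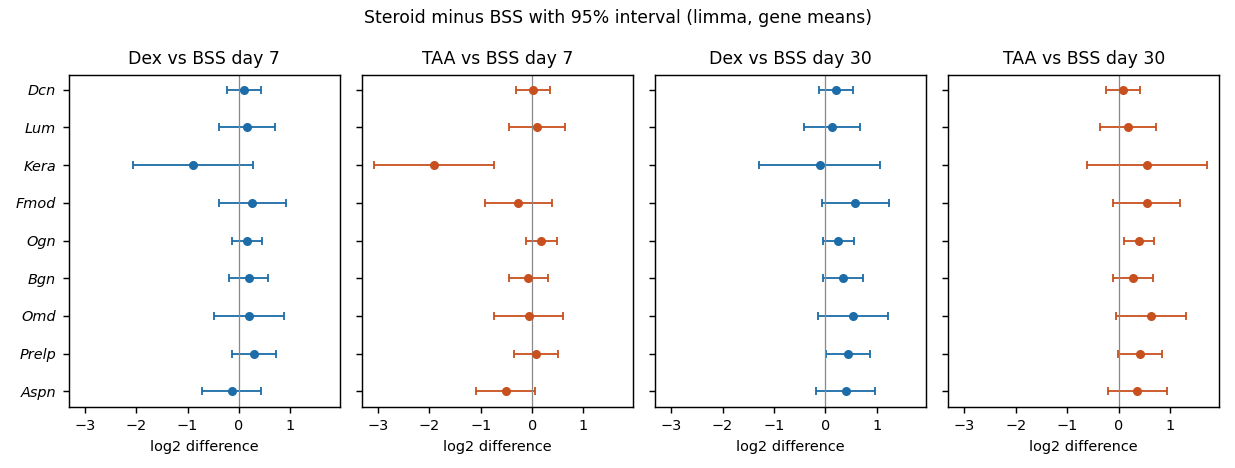
Difference between a steroid and BSS on the log2 scale (x axis) for the mean of the probe sets of each of the 9 genes (y axis), with its 95% interval from limma, in 1 panel for each steroid and day. Each difference compares 3 arrays with 3. Most intervals cross 0; those that do not are Kera for TAA at day 7 (below 0), and Prelp for Dex and Ogn for TAA at day 30 (above 0), none of them past the adjusted threshold.

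Set side by side, the 4 steroid comparisons had the following counts. The arrays of steroid and BSS did not overlap, in either direction, in 1 of the 20 probe sets for Dex at day 7 against 8.95% of all probe sets, in 1 for TAA at day 7 against 10.8%, in 1 for Dex at day 30 against 4.84% and in 2 for TAA at day 30 against 5.97%. Dex and TAA of a day share the 3 BSS arrays, so that an unusual BSS array enters both. For Dex at day 7, 7 of the 9 genes were above BSS, with a median difference of 0.16, against 50.8% of all genes above 0, and 0 of the 20 probe sets met the study's thresholds against 0.104% of all. For TAA at day 7, 4 of the 9 were above BSS, with a median of -0.07, against 49.8% of all genes, and 1 of the 20, Kera, met the thresholds against 0.452% of all. Without BSS day 7 replicate 2 that count was 6. With the muscle mean as a covariate, 5 of the 9 genes were above BSS for TAA at day 7, with a median of 0.10.

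For Dex at day 30, 8 of the 9 genes were above BSS, with a median of 0.34, against 53.7% of all genes, and 1 of the 20, a probe set of Fmod, met the thresholds against 0.477% of all. For TAA at day 30, 9 of the 9 were above BSS, with a median of 0.40, against 54.3% of all genes, and 0 of the 20 met the thresholds against 0.175% of all. The counts at the thresholds moved when single BSS arrays were left out. BSS day 30 replicate 1 had the lowest value of all 18 arrays in 6 of the 9 genes, and BSS day 30 replicate 2 was below 0 in all 9, while BSS day 30 replicate 3 was below 0 in 2. Without replicate 3 of BSS day 30, 10 of the 20 probe sets met the thresholds for Dex and 10 for TAA, and still 0 passed the adjusted threshold. Without replicate 1, 0 met the thresholds for either steroid, and the median for TAA was 0.21. In each of these fits 9 of the 9 genes were above BSS for TAA.

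Markers of other tissues differed at day 30 as well. All 9 rod genes were lower than in BSS on average for both steroids, with medians of -1.66 for Dex and -0.93 for TAA, and so were all 6 lens genes, with medians of -1.35 and -1.34. The mean of the rod genes ran from -0.60 to 3.87 on the BSS arrays, from -1.58 to 3.65 on the Dex arrays and from -1.72 to 3.47 on the TAA arrays. With that mean as a covariate, 9 of the 9 proteoglycan genes were above BSS for Dex, with a median of 0.34, and 9 of the 9 for TAA, with a median of 0.41. The mean of the lens genes ran from -0.0043 to 3.41 on the BSS arrays, from -0.29 to 1.04 on the Dex arrays and from -0.34 to 0.52 on the TAA arrays, and its part in the result was not tested. For TAA all 9 skeletal muscle and 4 of 4 adipocyte genes were lower as well, with medians of -0.28 and -0.37. With the muscle mean as a covariate, 9 of the 9 proteoglycan genes were above BSS for TAA, with a median of 0.29, and the part of the adipocyte genes was not tested. The covariate fits are given as values, and the part of rod or muscle tissue was likewise not tested.

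Other stromal genes were low on the same BSS array. On BSS day 30 replicate 1 the mean of 9 stromal fibroblast genes was -0.69, that of 13 stromal collagens -0.59 and that of 6 cartilage and tendon genes -0.64. On the other arrays of BSS day 30 these means were -0.07 and -0.19, -0.10 and -0.33, and -0.10 and 0.02. At day 30, 8 of the 9 stromal fibroblast genes were above BSS for Dex (median 0.44) and 7 of the 9 for TAA (median 0.23). Of the 6 cartilage and tendon genes, 5 were above BSS for each steroid, with medians of 0.24 and 0.18. The part of stromal tissue in the values of the proteoglycan genes was not tested.

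**Figure D3:**
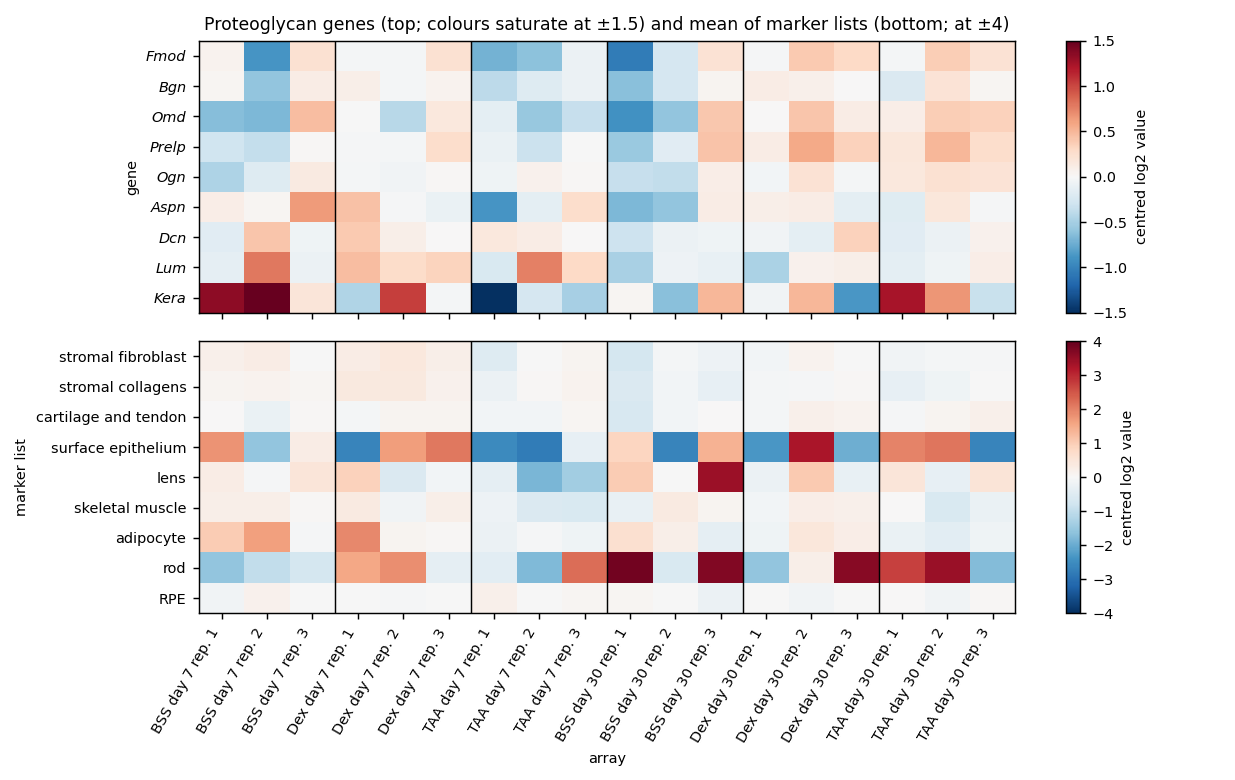
Centred log2 values of the 9 proteoglycan genes (top) and means of 9 marker lists (bottom) on each of the 18 arrays (x axis, grouped by treatment and day); red is above and blue below the median of all arrays, and the 2 colour bars have different scales. BSS day 30 replicate 1 is below 0 in 8 of the 9 genes and in the lists of stromal fibroblasts, collagens, and cartilage and tendon, while the rod and surface epithelium lists vary most.

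TAA was also set beside Dex, at doses of 25 and 10 μg, so that compound and dose cannot be told apart. At day 7, 8 of the 9 genes were lower after TAA, with a median of -0.26, against 49.4% of all genes above 0. Of the 20 probe sets, 6 had all 3 TAA arrays below all 3 Dex arrays, all 3 of Bgn and 3 of the 6 of Fmod, while 11.1% of all probe sets had arrays apart in either direction. These 6 stand for 2 genes and are not independent of each other. Of the 20, 0 met the study's thresholds, against 0.271% of all. The differences were -0.26 for Bgn (interval -0.65 to 0.13), -0.53 for Fmod (interval -1.18 to 0.12) and -1.02 for Kera (interval -2.19 to 0.16), and each interval holds 0 as well as clearly lower values. At day 30, 4 of the 9 genes were higher after TAA, with a median of -0.03, against 50.9% of all genes, 0 of the 20 probe sets had arrays apart against 4.9% of all, and 0 met the thresholds against 0.115% of all. The intervals at day 30 were -0.69 to 0.61 for Fmod, -0.44 to 0.33 for Bgn and -0.51 to 1.84 for Kera. With the muscle mean as a covariate, the median of the 9 genes was -0.095 at day 7 and 0.051 at day 30.

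No probe set of these genes passed the adjusted threshold between the days. In day 30 against day 7 over all treatments, where time since injection and age cannot be told apart, 5 of the 9 genes were higher, with a median of 0.04, against 42.7% of all genes. The count at the study's thresholds was 0 of 20 against 0.958% of all, and 2 of the 20, of Prelp and Lum, were at or under 0.05 before adjustment against 13.8% of all. The effect of Dex at day 30 minus that at day 7 was above 0 in 8 of the 9 genes, with a median of 0.16 against 54.5% of all genes, and 0 of 20 met the thresholds against 0.807% of all, with 0 at or under 0.05 before adjustment against 2.97%. The same change for TAA was above 0 in 9 of the 9, with a median of 0.36 against 52.7% of all genes, and 3 of 20 met the thresholds against 0.701% of all, with the same 3 at or under 0.05 before adjustment against 3.03%. They were the probe set of Kera, 1 of Fmod (1437324_x_at) and 1 of Aspn (1416652_at). Without BSS day 30 replicate 3 this count was 12, without BSS day 7 replicate 2 it was 9, and without TAA day 7 replicate 3 it was 8. It was 1 without BSS day 7 replicate 3, TAA day 7 replicate 1, BSS day 30 replicate 1 or TAA day 30 replicate 2.

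Over the 18 arrays some of the genes varied together. Of the 36 pairs of genes, 11 were correlated at a Benjamini-Hochberg adjusted p under 0.05 by a permutation test of Pearson's r, and 12 by Spearman's rho. Of these 11 pairs, 10 were among Fmod, Bgn, Omd, Prelp, Ogn and Aspn, and the other was Dcn with Lum. In this group, by Pearson's r, Ogn passed only with Omd and Prelp, and Aspn only with Fmod and Bgn. Every pair named here shares its arrays, so its tissue and its RNA quality.

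Fmod and Bgn, which lie on different chromosomes, had the highest correlation (r = 0.92, rho = 0.80, permutation p = 1e-05, the smallest that 100000 resamples can give, adjusted p = 0.00012). It was 0.94 at day 7, 0.93 at day 30, 0.91 within groups, and 0.83 without the 2 arrays on which Fmod lay farthest from its median. For each pair the 2 arrays left out were chosen by the gene named first, so they can differ between pairs. Omd and Prelp, on chromosomes 13 and 1, followed (r = 0.90, rho = 0.90, permutation p = 1e-05), with 0.78 at day 7, 0.97 at day 30 and 0.84 without the 2 arrays chosen by Omd. Fmod and its neighbour Prelp had r = 0.85 (rho = 0.89, permutation p = 1e-05), with 0.68 at day 7, 0.97 at day 30 and 0.76 without 2 arrays. Ogn and its neighbour Omd had r = 0.83 (rho = 0.83), with 0.63 and 0.94 by day and 0.82 without 2 arrays. The other pairs of this group that passed had r from 0.59 to 0.79.

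Dcn and Lum, neighbours on chromosome 10, were correlated with each other (r = 0.68, rho = 0.66, permutation p = 0.00196, adjusted p = 0.00784), with 0.61 at day 7, 0.58 at day 30 and 0.49 without 2 arrays. Neither passed with Fmod, Bgn, Omd or Prelp over all arrays, where r ran from -0.16 to -0.02. Within day 30 alone, r of Lum with these 4 genes ran from 0.49 to 0.74, and within day 7 from -0.41 to -0.28. Kera, which lies next to Lum, passed with none of the other 8 genes (r from -0.21 to 0.39). Pairs in the same gene cluster (7 pairs, median r 0.47, 3 past the threshold) were thus not all correlated, and 8 of the 29 pairs on different chromosomes passed.

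**Figure D4:**
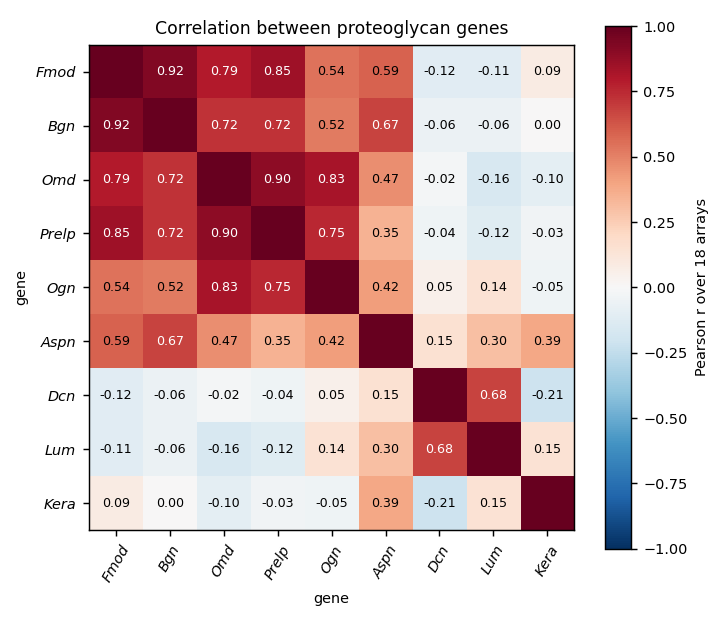
Pearson's r over the 18 arrays between each pair of the 9 genes (both axes). Red is positive and blue negative, and the number in each cell is r. Fmod, Bgn, Omd and Prelp are all correlated with each other (r from 0.72 to 0.92). Past the adjusted threshold, Ogn joins only Omd and Prelp, and Aspn only Fmod and Bgn. Dcn and Lum form a pair (r = 0.68), and Kera stays between -0.21 and 0.39 with all others.

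The genes outside the family whose values were most like those of each member were found by Pearson's r of gene means over the 18 arrays. For Fmod they were Ecrg4 (r = 0.94) and Tnmd (r = 0.91), the latter encoding the tendon protein tenomodulin. For Bgn they were Ltbp2 (r = 0.90), which encodes a binding protein of the microfibrils, and again Ecrg4 (r = 0.88). Ecrg4 was also next after Prelp for Omd (r = 0.85), followed by Ankrd29 (r = 0.84), and Tgfb3 next after Omd for Prelp (r = 0.89), followed by 1700025G04Rik (r = 0.89). Lum was most like Itm2a (r = 0.92), Oaf and Ggt5, Dcn most like Garre1 (r = 0.83), Cdk17 and Lama2, Aspn most like Fstl1 (r = 0.87), Prss35 and Nnmt, Ogn most like Nup93 (r = 0.83), then its relative Omd and Lars (r = 0.81), and Kera most like Zscan5b (r = 0.78), Agtr2 and Reps2. These genes are the most alike among all 18194 and are named as a description, with no test.

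The genes that work with these proteoglycans were read from the same kind of fit on gene means. For the other leucine-rich proteoglycans measured (6 genes), Epyc, the neighbour of Kera that encodes epiphycan, met the study's thresholds for TAA at day 7 (-0.91, SE 0.25, unadjusted p = 0.00235) and at day 30 (-0.60, SE 0.25, unadjusted p = 0.0293), with limma's adjusted p at 0.991 and 0.999. The other 5 met them in no comparison. Of the 8 genes of keratan sulfate synthesis and the 14 of chondroitin and dermatan sulfate synthesis, 0 met the thresholds in any comparison. Of the 6 ligands and receptors of TGF-β, Tgfb3 alone met them, in day 30 against day 7 (0.61, SE 0.13, limma's adjusted p = 0.0583), and all 6 were above BSS for both steroids at day 30, with medians of 0.10 and 0.14.

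The 13 stromal collagens were all lower at day 30 than at day 7, with a median of -0.31. Col5a2, a chain of the collagen that starts fibrils (-0.60, SE 0.11, adjusted p = 0.0315 in limma), and Col14a1, a collagen on the fibril surface (-0.51, SE 0.09, adjusted p = 0.023), fell past the adjusted threshold, against 0.429% of all 18194 genes. Of the 9 proteoglycan genes, 4 were lower and 5 higher at day 30, with a median of 0.04, while 42.7% of all genes were higher. When each array was left out in turn, the count of higher proteoglycan genes ran from 4 to 6 and their median from -0.01 to 0.10. Against BSS, the collagens were higher for Dex in 13 of 13 at day 7 and 12 of 13 at day 30, and for TAA in 3 of 13 and 10 of 13, with 0 at the thresholds in these 4 comparisons.

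The remaining lists had 0 genes past the adjusted threshold, where the share of all genes was 0.0055% for TAA against BSS at day 7 and 0% in the other comparisons of treatments. At the study's thresholds, Dex at day 7 had 0 genes of any list, against 0.0989% of all genes. TAA at day 7 had 1 of 9 stromal fibroblast genes (Dpt, -1.53, SE 0.32, which encodes a protein that binds decorin), 3 of 6 lens, 5 of 9 skeletal muscle and 2 of 4 adipocyte genes, all lower, against 0.583% of all. Dex at day 30 had 1 of 6 cartilage and tendon genes (Comp, 0.98, SE 0.44) against 0.44%, and TAA at day 30 had 1 of 9 skeletal muscle genes, lower, besides Epyc, against 0.176%. TAA against Dex at day 7 had 3 of 9 stromal fibroblast genes (Dpt, Mfap4 and Col1a1, which is also in the collagen list), 2 of 6 lens and 6 of 9 skeletal muscle genes, all lower after TAA, besides Epyc, against 0.346%, and at day 30 it had 1 skeletal muscle gene against 0.126%.

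In day 30 against day 7, 4 of 6 lens and 2 of 9 rod genes were higher and Epyc and the fibroblast collagen Col3a1 lower at these thresholds, against 1.01% of all genes. The change in the effect of Dex had 0 genes of any list, against 0.627%. That of TAA had Dpt (1.23, SE 0.45), Mfap4 and Col6a2, all higher at day 30 than at day 7, against 0.478%. The lists of surface epithelium (7 genes), RPE (7) and melanocyte and pigment genes (5) had 0 at the thresholds in any comparison.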

How the data were processed

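Affymetrix mouse arrays, 18 in all, measured RPE/choroid RNA, with 3 arrays for each of 6 groups of treatment and day. Per the labels, targets were made with a two-cycle protocol, while the methods name the 3′ IVT Express kit. The authors summarised the scans by RMA in GeneSpring GX with the median of all samples as baseline, and the deposited log2 values of 45101 probe sets carry a median over the arrays of at most 5e-07 in size. They give no level and no depth, and the number of arrays limits the precision. Array medians ran from -0.044 to 0.020, and 0 arrays were identical. Of the probe sets, 34958 were annotated with 1 symbol, 932 with several and 9211 with none, which are not named here.

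Groups were compared in R 4.3.3 by limma 3.58.1 (1 mean per group, 12 residual degrees of freedom, a prior of 3.29; two-sided; Benjamini-Hochberg over all probe sets; call at an adjusted p under 0.05), and the code was tested on simulated data. Gene values are means over probe sets and were fitted in the same way over 18194 genes. Pairs of genes were compared in Python 3.11.15 with numpy 2.4.6 and scipy 1.17.1, by 100000 permutations, and plots were made with matplotlib 3.10.9. The genes and the 14 gene lists were chosen with earlier results of these data known. Named genes were drawn from all probe sets of the 9 genes, the list members past the adjusted threshold or else up to 4 at the study's thresholds with the largest change, and the 3 genes most like each of the 9, with lens, rod, skeletal muscle and adipocyte genes given as counts. Genes of the lists not analysed here include Plin1, Cfd, Podnl1, Tsku and Xylt1. Promoters are from RefSeq, assembly GRCm38.p6; the probe files name no build. Alternatives were a replicate block, array weights, median centring, a robust prior, gene means, probe sets without shared probes, marker means as covariates, the groups compared alone, the methods' tests and leaving out each array.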

Additional observations from a re-analysis of the deposited data

Results flagged for a closer look

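The effect of TAA differed between day 30 and day 7 at the study's thresholds for 3 of the 20 probe sets. The share of all probe sets was 0.701%. In limma's test of the difference between the effects, Kera (1418063_at) changed by 2.46 on the log2 scale (SE 0.76, unadjusted p = 0.00547), Fmod (1437324_x_at) by 1.02 (SE 0.48, unadjusted p = 0.0492) and Aspn (1416652_at) by 1.01 (SE 0.43, unadjusted p = 0.0335). The adjusted p was 0.994 for each. The values of Fmod on that probe set were 0.11, -1.005 and 0.35 after BSS and -0.82, -0.71 and -0.18 after TAA at day 7, and -1.25, -0.26 and 0.16 after BSS and -0.06, 0.36 and 0.23 after TAA at day 30. Those of Aspn were 0.21, -0.15 and 0.75 after BSS and -0.98, -0.26 and 0.30 after TAA at day 7, and -0.90, -0.58 and 0.11 after BSS and -0.24, 0.22 and -0.08 after TAA at day 30. In both genes the arrays of TAA and BSS overlapped at each day. When each array was left out in turn, the change ran from 2.00 to 2.90 for Kera, from 0.62 to 1.43 for Fmod and from 0.67 to 1.32 for Aspn. The other probe sets of Fmod changed in the same direction, none of them at or under 0.05 before adjustment in limma. The other of Aspn changed by 0.76 (SE 0.37, unadjusted p = 0.0549 in limma). As gene means the change in limma was 0.82 for Fmod (SE 0.43, unadjusted p = 0.0767) and 0.88 for Aspn (SE 0.38, unadjusted p = 0.035).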

How the results depend on the processing

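The count of probe sets past the adjusted threshold was 0 in each comparison under every alternative run, and no reported difference of a probe set changed sign. The counts at the study's thresholds moved. With array weights they were 2 for TAA at day 7, 7 for Dex and 7 for TAA at day 30, 1 for TAA against Dex at day 7, 13 for the change of the TAA effect and 7 in the F-test at an unadjusted p of 0.05 or less. With the replicate number as a block the counts at day 30 were 2 for Dex and 2 for TAA, with 5 for the change of the TAA effect and 3 in the F-test. For Dex at day 30 the count was 0 with median centring, a robust prior, gene means, the muscle covariate, the groups compared alone and the methods' t-test, and 2 with the rod covariate. It was 2 for TAA at day 7 with the muscle covariate, 1 for TAA at day 30 with the rod covariate, 2 for TAA against Dex at day 7 with the groups compared alone and 1 with the methods' t-test. For the change of the TAA effect it was 1 with the surface epithelium covariate and 1 with the groups compared alone. The F-test count was 0 without probe sets of shared probes, with gene means and with the methods' ANOVA, and 2 with the rod covariate. The cause was not tested. Leaving out each array in turn gave from 0 to 1 for Dex and from 1 to 6 for TAA at day 7, from 0 to 10 for Dex and from 0 to 10 for TAA at day 30, from 0 to 4 for TAA against Dex at day 7 (4 without TAA day 7 replicate 3), from 0 to 1 for the change of the Dex effect, from 1 to 12 for that of the TAA effect and from 0 to 8 in the F-test (8 without BSS day 30 replicate 3). The count of 11 correlated pairs of genes kept within 1.5 times under both alternatives run.

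The deviations of same-numbered arrays had r from -0.69 to 0.56 over 45 pairs, of which 13 were over 0.1. Of the 18 arrays, 3 were most like one of their own number. The labels do not say whether the numbers pair the animals, and this comparison cannot settle it. Median centring moved the median of all probe sets by at most 0.0129. A filter on low values was planned and not run, since the values hold no level, and signal over background is unknown. With 3 arrays a group, the 95% interval of a difference reached 0.30 to 1.17 to either side, depending on the gene.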
